A study of Mus musculus with 26 samples.

Results

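The probes described here were bright at every stage of normal thymocyte development sampled and dimmer in mouse T-cell acute lymphoblastic leukaemia (T-ALL). They were chosen on measured values. Each of 46089 bead-array probes on both deposited tables was scored by its lowest mean among 7 thymocyte stages minus the higher of the 2 T-ALL group means, on the log2 scale after quantile normalisation of 25 arrays, and the 80 highest scores were kept. Of these 80 probes, 68 carry 1 gene symbol and stand for 61 genes, and 12 have no gene name in the annotation used. The word lost does not describe most of them. By the scanner's detection p-value, 52 of the 80 were detected on all 10 T-ALL arrays, 26 on some of them, and 2 on none. All 80 were detected on all 15 thymocyte arrays used.

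T-ALL is a cancer of immature T cells. In this series 7 T-ALL arrays carry the label Rag-proficient, from F1(WB x B6/Ly5.1) mice, and 3 carry the label Rag-deficient, from C57BL/6 mice. Rag is the recombinase that cuts antigen receptor genes, and the labels do not say which of its genes was disrupted or what started the leukaemias. The thymocytes were all C57BL/6 and were defined by surface phenotype. Early thymic progenitors (ETP, lineage-negative CD44+ CD25- Kit+) had 2 arrays, and TN2 cells (CD44+ CD25+) had 2, of which 1 was used. TN3a cells (CD44- CD25+ CD28-) had 3 arrays, TN3b cells (CD44- CD25+ CD28+) 2 and TN4 cells (CD44- CD25- CD28+) 3, and all TN cells lack CD4, CD8 and CD3. Immature single positive cells (ISP, CD4- CD8+ CD24+, no TCRbeta) had 2 arrays, as did the cells positive for both CD4 and CD8 (DP). The labels give no ages and do not tie arrays to animals, so the p-values below measure only the spread between these arrays.

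Thymocytes pass through these stages in the order given. Progenitors lose the option of other blood lineages between ETP and TN3a, rearrange the T cell receptor beta gene, are selected for a working beta chain at the passage from TN3a to TN3b, divide, and become DP cells that rearrange the alpha gene.

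T-ALL arrays were brighter before normalisation, with median intensities of 121.4 to 146.4 against 83.32 to 110.1 on the thymocyte arrays used. They also had more probes detected, 42.58% to 46.35% against 34.74% to 41.76%, and the part of this gap in the differences below was not tested. TN2 replicate 2 detected 21.37% and was left out of the choice. T-ALL arrays lay on 3 slides and thymocyte arrays on 4 others, so slide and tissue cannot be told apart. Markers of the T lineage were present in T-ALL, with Cd3e probe ILMN_1238847 at a mean of 12.86 in the Rag-proficient and 13.06 in the Rag-deficient group. Red cell transcripts were also far brighter there. The summed linear signal of 15 probes of 5 erythroid genes, haemoglobin chains among them, was 208326 to 266059 on T-ALL arrays and 1598 to 46713 on thymocyte arrays. The highest thymocyte sum was on TN2 replicate 1, the only TN2 array used. The fit called 14 of these 15 probes higher in each T-ALL group, against 19.1% of all probes in the Rag-proficient and 11.2% in the Rag-deficient comparison. Dendritic markers summed to 3376 to 9646 on T-ALL and 1760 to 3069 on thymocyte arrays, and myeloid markers to 5865 to 43177 and 1412 to 46918. The erythroid and dendritic sums parted T-ALL from thymocyte arrays, and so move with the differences between them below. The myeloid sums overlapped. The part of any of these signals in those differences was not tested. In such bulk samples fewer cells of a type and less RNA per cell cannot be told apart.

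Scores ran from 0.62 to 3.05 with a median of 0.77, which is a 1.71-fold difference, and 19 probes scored above 1. The values keep the arrays' background, so folds of dim probes are understated. The opposite pattern, a T-ALL mean above the highest stage mean by as much, was held by 359 probes, 204 of them above 1. On 57 of the 80 probes every one of the 15 thymocyte arrays was above every one of the 10 T-ALL arrays, as on 0.506% of all probes. In the fit against the mean of the stages 80 of 80 were called lower in Rag-proficient T-ALL (20.5% of all probes were) and 75 of 80 in Rag-deficient T-ALL (9.63%). The choice of the probes fixes these counts, and nothing is read from them. Just inside the threshold were the Eef1a1-annotated probe ILMN_1244894 (0.63), Jmjd8 (0.62) and Fam3c (0.62), and just outside it Yme1l1, Fgf13 and Pomgnt2, each at 0.62.

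**Figure D1:**
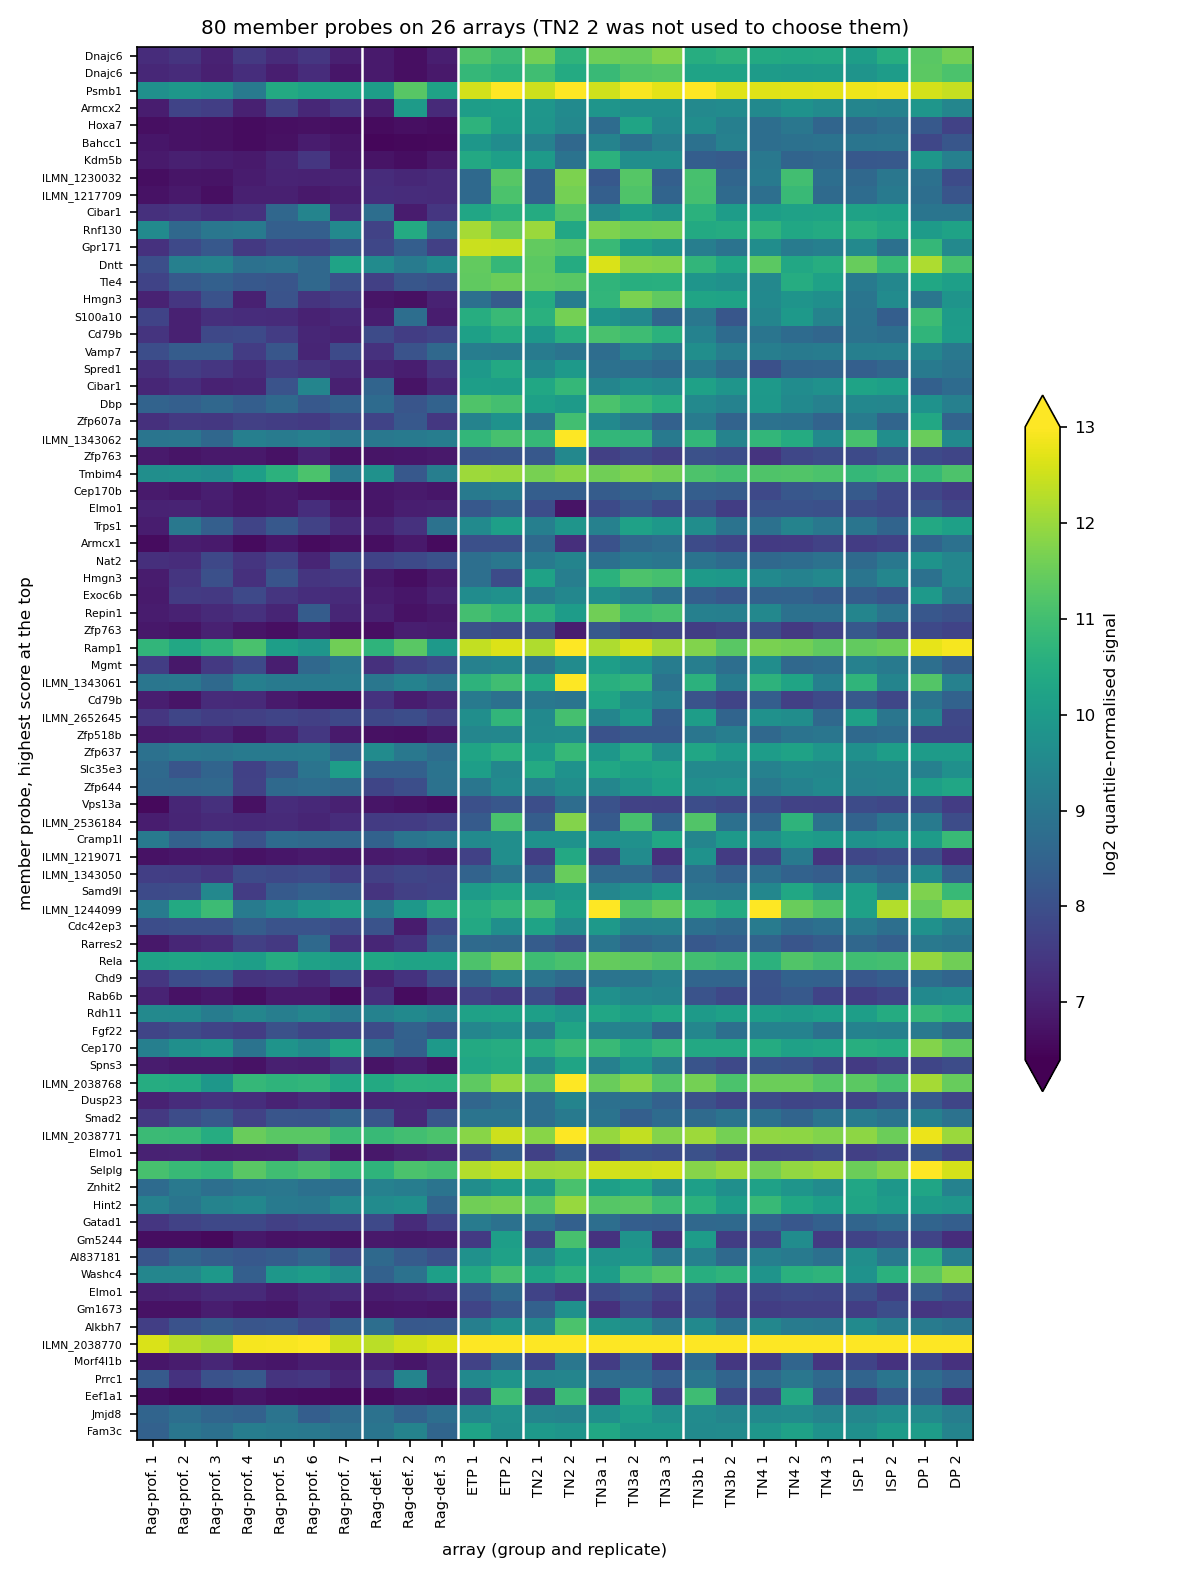
Log2 quantile-normalised signal (colour) of the 80 probes (rows, highest score at the top) on 26 arrays (columns, white lines between groups). The 10 T-ALL columns at the left are darker than the 15 thymocyte columns used in the choice, and TN2 replicate 2, which was not used, is bright for most rows.

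Dnajc6, which encodes auxilin, a partner of the chaperone Hsc70 in stripping clathrin coats from vesicles, held the 2 highest scores. Probe ILMN_1230224 was at 6.98 to 7.49 (median 7.25) on the Rag-proficient arrays and at 6.88, 6.66 and 6.97 on the Rag-deficient arrays. Among thymocytes it was at 11.20 and 10.89 in ETP, 11.59 in TN2, 11.55, 11.47 and 11.76 in TN3a, 10.51 and 10.67 in TN3b, 10.41, 10.35 and 10.39 in TN4, 10.08 and 10.52 in ISP, and 11.32 and 11.58 in DP. The lowest thymocyte array stood 2.59 above the highest T-ALL array. The second probe, ILMN_2733605, gave 6.67 to 7.26 on T-ALL and 9.83 to 11.34 on thymocyte arrays. Another Dnajc6 probe was detected on no T-ALL array and on 1 thymocyte array, and so says nothing about the gene.

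The promoters of Dnajc6 and of 2 other genes that carry the results, Hoxa7 and Dntt, are shown so that their sequence can be set beside these levels. They are the RefSeq sequences of build GRCm38.p6, from 250 bases before to 50 bases after the transcript start, 5′ to 3′ on the gene's strand. Capitals mark matches, on either strand, to motifs of factor families that act in T cells. The motif of RUNX factors was searched as TGTGGT, the E-box motif as CAGNTG, the motif of ETS factors as CCGGAA, and the motif of GATA factors as AGATAA. For the TCF/LEF family the letters searched were CTTTGA, and for RBPJ, the partner protein of Notch on DNA, they were TGGGAA.
Dnajc6, upstream start, chr4:101507726-101508025, plus strand: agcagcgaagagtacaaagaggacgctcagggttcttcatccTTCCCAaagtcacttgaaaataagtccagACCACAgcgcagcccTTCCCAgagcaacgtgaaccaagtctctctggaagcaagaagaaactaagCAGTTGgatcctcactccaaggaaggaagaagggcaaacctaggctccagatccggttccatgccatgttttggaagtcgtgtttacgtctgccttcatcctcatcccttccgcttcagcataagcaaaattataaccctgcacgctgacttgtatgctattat
Dnajc6, downstream start, chr4:101550344-101550643, plus strand: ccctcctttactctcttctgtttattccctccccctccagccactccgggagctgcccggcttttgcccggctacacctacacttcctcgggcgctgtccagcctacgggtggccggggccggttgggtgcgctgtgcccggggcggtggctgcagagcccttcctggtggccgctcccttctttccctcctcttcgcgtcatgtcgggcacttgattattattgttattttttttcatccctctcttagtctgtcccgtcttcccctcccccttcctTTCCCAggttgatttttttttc
Hoxa7, chr6:52218524-52218823, minus strand: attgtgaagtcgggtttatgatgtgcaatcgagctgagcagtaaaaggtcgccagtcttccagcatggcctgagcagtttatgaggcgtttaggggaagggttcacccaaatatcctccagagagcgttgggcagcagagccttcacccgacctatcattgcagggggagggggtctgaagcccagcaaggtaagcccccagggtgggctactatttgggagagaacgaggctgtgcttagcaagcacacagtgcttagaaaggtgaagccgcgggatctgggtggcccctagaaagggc
Dntt, chr19:41029025-41029324, plus strand: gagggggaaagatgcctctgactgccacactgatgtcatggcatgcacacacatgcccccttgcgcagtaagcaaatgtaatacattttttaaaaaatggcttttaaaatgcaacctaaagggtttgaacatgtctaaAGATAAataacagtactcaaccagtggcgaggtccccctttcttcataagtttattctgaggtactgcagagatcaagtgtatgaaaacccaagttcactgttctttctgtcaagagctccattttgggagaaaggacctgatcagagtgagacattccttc

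The upstream Dnajc6 promoter held 4 matches, 2 of them to the RBPJ letters, the downstream one 1, the Dntt promoter 1, and the Hoxa7 promoter 0. Promoters were listed for 43 of the 61 genes, 52 in all. The RBPJ letters were in 40.4% of the 52 and in 25.6% of all 32851 promoters of this length, and the RUNX letters in 19.2% and 16.8%. E-box letters were in 30.8% and 51.4%, ETS in 13.5% and 14.9%, GATA in 3.85% and 11.2%, and TCF/LEF in 9.62% and 16.0%. A match is only a run of letters, and the shares are given as a description.

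Transcription and chromatin genes made up the largest group, 21 probes of 19 genes by a grouping made with the probes known. The F test among stages, described further down, called 13 of the 21, where it called 42 of all 80 members and 27.5% of all probes. Hoxa7, a homeobox factor, was detected on no T-ALL array. It was at 6.61 to 6.72 (median 6.68) on the Rag-proficient arrays and at 6.60, 6.66 and 6.62 on the Rag-deficient ones, the level of undetected probes. Thymocytes gave 10.67 and 10.06 in ETP, 9.85 in TN2, 8.73, 10.26 and 9.55 in TN3a, 9.64 and 9.24 in TN3b, 8.78, 9.02 and 8.56 in TN4, 8.63 and 8.80 in ISP, and 8.23 and 7.71 in DP. Its mean was lower at each later stage, but no step between successive stages was called for Hoxa7. The limma F test, which asks only whether any stages differ, gave an adjusted p of 0.00954. Even DP, the lowest, was at least 2.27-fold above the detection floor of either T-ALL group.

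Bahcc1, a chromatin protein with a BAH domain, was detected on 1 of 10 T-ALL arrays and had its lowest stage mean, 7.98 ± 0.25 (SD, n = 2), in DP too. Kdm5b, a histone demethylase called Jarid1b in the deposited table, was detected on 7 Rag-proficient arrays and on no Rag-deficient array. The Kdm5b level was 7.01 ± 0.21 (SD, n = 7) and 6.74 ± 0.10 (SD, n = 3) in these T-ALL groups, 10.25 ± 0.18 (SD, n = 2) in ETP, 9.99 ± 0.57 (SD, n = 3) in TN3a, 8.34 ± 0.05 (SD, n = 2) in TN3b, 8.23 ± 0.02 (SD, n = 2) in ISP and 9.58 ± 0.43 (SD, n = 2) in DP. It was therefore high in 2 windows, up to TN3a and again in DP, and no thymocyte array overlapped T-ALL. Tle4, a Groucho-family corepressor, lay at 8.20 ± 0.28 (SD, n = 7) and 7.95 ± 0.26 (SD, n = 3) in the T-ALL groups and between 11.45 ± 0.08 (SD, n = 2) in ETP and 9.27 ± 0.25 (SD, n = 2) in ISP among the stages. Hmgn3, which encodes a nucleosome-binding protein, was at 7.02 to 8.08 (median 7.45) on Rag-proficient arrays and at 6.78, 6.70 and 7.02 on Rag-deficient arrays by probe ILMN_1247704. Unlike the genes above, its lowest stage was ETP, at 8.57, and its highest TN3a, at 11.27. Dbp, a transcription factor under clock control, held a narrow T-ALL range of 8.15 to 8.72 and stage means from 11.11 in ETP to 9.42 in TN3b. Trps1, a zinc-finger repressor, overlapped, with 6.92 to 9.03 on Rag-proficient arrays, 7.05, 7.33 and 8.88 on Rag-deficient arrays and 8.52 to 10.38 on thymocyte arrays. Rela, a subunit of NF-kB, was lower in T-ALL as well but stayed bright there, at 10.21 ± 0.15 (SD, n = 7) and 10.26 ± 0.06 (SD, n = 3) against stage means from 10.95 to 11.76.

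Lymphocyte, receptor and secreted genes counted 11 probes of 10 genes, and the F test among stages called 8 of them (27.5% of all probes). Dntt encodes terminal deoxynucleotidyl transferase, which adds untemplated bases to antigen receptor joints. Its probe read 8.00 to 10.24 (median 8.94) on Rag-proficient arrays and 9.57, 9.14 and 9.54 on Rag-deficient arrays. Its thymocyte arrays ran from 10.30 in TN3b to 12.62 in TN3a, so the groups parted by only 0.07 and Dntt stayed detected on all 10 T-ALL arrays. Dntt was the one member among 20 probes of 13 recombination and repair genes on the array. Of the 18 tested, 4 were called lower and 4 higher in Rag-proficient T-ALL, and 5 and 4 in Rag-deficient T-ALL, with list medians of 0.01 and -0.20 against -0.01 and -0.0036 for all probes. Of all probes 20.5% were called lower and 19.1% higher in Rag-proficient T-ALL, and 9.63% and 11.2% in Rag-deficient T-ALL. Rag1, which encodes a recombinase subunit, was not absent from the arrays labelled Rag-deficient, at 9.08 to 9.80, and a probe outside a deleted stretch would check nothing.

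Cd79b encodes a signalling chain of the B cell receptor. Probe ILMN_2610822 was at 7.00 to 7.89 (median 7.39) on Rag-proficient and at 7.90, 7.61 and 7.72 on Rag-deficient arrays. Its stage means were 10.31 in ETP, 9.93 in TN2, 10.89 in TN3a, 9.02 in TN3b, 8.75 in TN4, 8.84 in ISP and 10.39 in DP. The second Cd79b probe had the same highest stage, TN3a, at 9.72. Of the other B cell markers on the array, Pax5 was detected on 0 and Ms4a1 on 2 of the 15 thymocyte arrays, and the brighter Ebf1 probe on 3. On the 10 T-ALL arrays Pax5 was detected on 4, Ms4a1 on 9 and this Ebf1 probe on 3. These dim probes did not share the lower T-ALL level of Cd79b. Relative to the stages, Ms4a1 differed by 0.13 in Rag-proficient and 0.16 in Rag-deficient T-ALL, Pax5 by 0.12 and 0.18, and Ebf1 by 0.03 and -0.03.

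Gpr171, a G protein-coupled receptor, had the widest stage range, 3.40. It was at 12.48 and 12.44 in ETP and at 9.21 and 8.90 in TN3b, against 7.34 to 8.38 in T-ALL. Selplg, the selectin ligand PSGL-1, and Ramp1, a partner of the calcitonin receptor-like receptor, were among the 5 brightest members in T-ALL. Selplg was at 10.99 ± 0.20 (SD, n = 7) and 10.95 ± 0.22 (SD, n = 3) there and at 11.65 to 12.80 across stage means, and Ramp1 at 10.63 ± 0.60 (SD, n = 7) and 10.65 ± 0.69 (SD, n = 3) against 11.46 to 12.82. Selplg was the one member among 29 adhesion and homing genes on the array, of which 27 were tested on 53 probes. That list had 16 probes called lower and 11 higher in Rag-proficient T-ALL, and 10 and 7 in Rag-deficient T-ALL, with medians of -0.09 and -0.10, beside 20.5% and 19.1%, and 9.63% and 11.2%, of all probes. Smad2, which carries TGF-beta signals to the nucleus, was the one member of 35 cytokine and growth factor receptor pathway genes, with 14 of 58 probes called lower and 8 higher in Rag-proficient and 10 and 4 in Rag-deficient T-ALL, beside the same shares of all probes, and medians of -0.03 and -0.08. No member fell in the lists of T cell receptor signalling (57 probes), T cell transcription factors (64) or the Notch pathway (22). Members are 80 of 46089 probes, so lists of this size would be likely to hold none, and nothing is read from this.

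Genes of membrane traffic and the cytoskeleton, Dnajc6 among them, counted 13 probes of 10 genes, and the F test called 7 of them, much the share among all members (42 of 80, and 27.5% of all probes). Rab6b, a small GTPase of the Golgi, was dim in T-ALL, at 6.59 to 7.05 (median 6.81) on Rag-proficient arrays and at 7.30, 6.63 and 6.84 on Rag-deficient arrays. It was high in 2 stages only, with means of 9.51 in TN3a and 9.57 in DP against 7.61 to 8.01 in the other 5. The 3 Elmo1 members were at 6.79 to 7.35 on all T-ALL arrays and at 7.59 to 8.64 on all thymocyte arrays. Vamp7, a vesicle SNARE, was at 7.08 to 8.64 in T-ALL and at 8.76 to 9.66 in thymocytes, and was not called among stages (adjusted p = 0.685, limma F test). Washc4, a subunit of the WASH complex on endosomes, spread widely in T-ALL, at 8.41 to 10.06 on Rag-proficient arrays and at 8.45, 8.88 and 10.12 on Rag-deficient arrays, and its DP mean was 11.57.

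Enzymes and protein turnover counted 8 probes of 8 genes, and the F test called 5 of them (27.5% of all probes). Mgmt, which removes alkyl groups from guanine in DNA, was at 6.84 to 9.03 (median 7.59) on Rag-proficient arrays, at 7.33, 7.67 and 7.85 on Rag-deficient arrays and at 8.34 to 10.09 on thymocyte arrays, so that 9 of 15 thymocyte arrays were above every leukaemia. Psmb1, a subunit of the proteasome core, had the highest score after Dnajc6 and stayed bright in T-ALL. Its probe was at 9.08 to 10.41 (median 9.88) on Rag-proficient arrays and at 10.07, 11.30 and 10.20 on Rag-deficient arrays, while all thymocyte arrays lay between 12.42 and 13.19. Its stage means spanned 0.37, among the 5 narrowest ranges of the 80 with Znhit2 (0.30), the lipid transfer protein Vps13a (0.32), the zinc-finger gene Zfp763 (0.37) and Vamp7 (0.41).

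**Figure D2:**
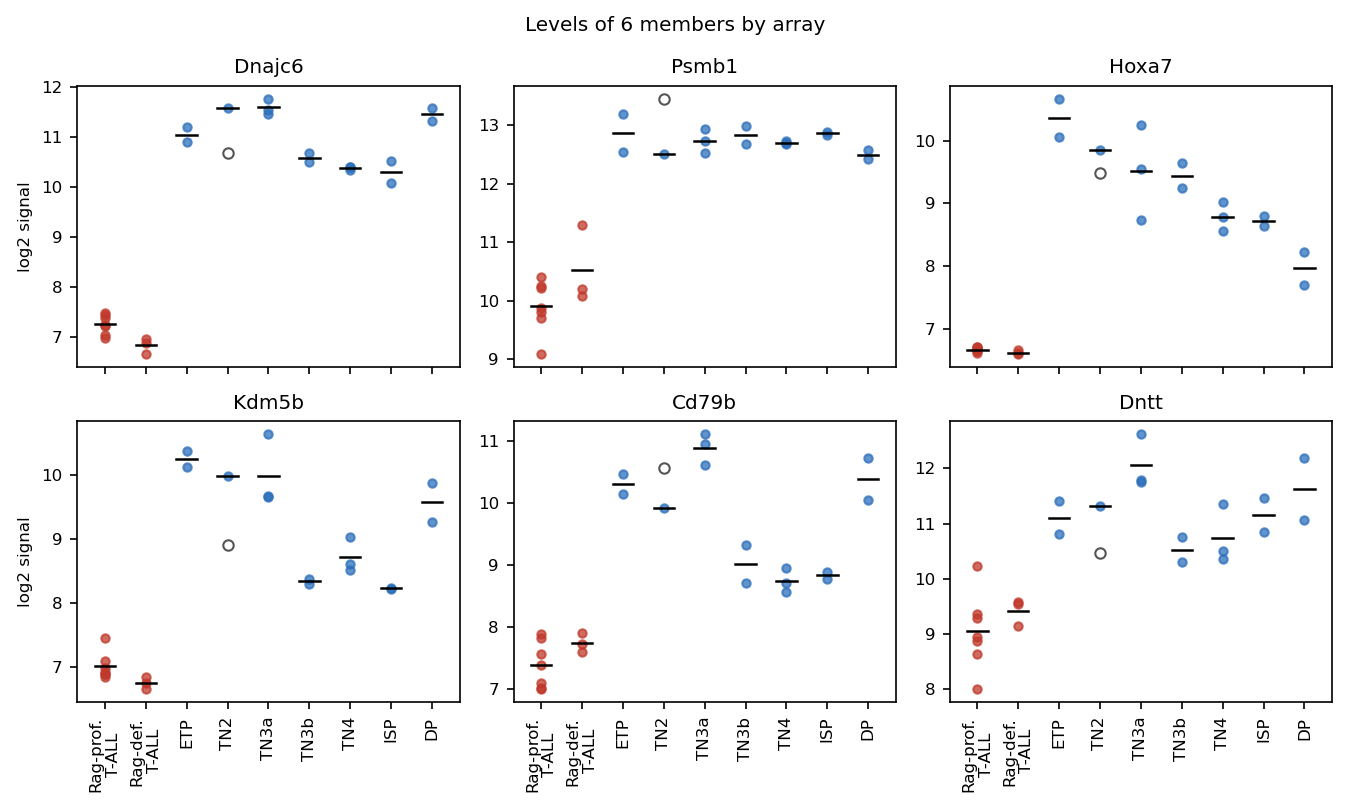
Log2 signal of 6 members on each array, with T-ALL in red, thymocytes in blue, group means as bars, and TN2 replicate 2, which was not used in the choice, as an open circle. Hoxa7 declines from ETP to DP, Kdm5b and Cd79b are high in ETP to TN3a and in DP, and Psmb1 is level across stages.

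On the 23 members whose groups overlapped, some T-ALL arrays reached the range of the thymocytes. The thymocyte arrays they reached were of early as well as late stages. For Hmgn3 probe ILMN_2644719 it was ETP replicate 2, at 7.92 against a T-ALL maximum of 8.12. Armcx2, an armadillo-repeat gene of the X chromosome, was at 6.93 to 7.72 on the Rag-proficient arrays and at 6.92 and 7.20 on 2 Rag-deficient arrays, but at 10.03 on Rag-deficient replicate 2, above 13 of the 15 thymocyte arrays. The same array held the highest T-ALL value of Psmb1 (11.30), of the ubiquitin ligase gene Rnf130 (10.44) and of S100a10 (8.78), which encodes a partner of annexin A2. Cibar1, which encodes a BAR-domain protein, was at 8.62 and 9.38 on Rag-proficient replicates 5 and 6 and at 8.78 on Rag-deficient replicate 1, against 6.90 to 7.45 on the other 7 T-ALL arrays. Its DP arrays were at 8.96 and 8.95, and 13 thymocyte arrays were above every leukaemia. The second Cibar1 probe followed the first across the 10 leukaemias (r = 0.99).

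The Rag comparison asked whether the 2 kinds of leukaemia differed in these probes. The choice did not use that difference, but it did use the higher of the 2 means. A probe as high in either group as in its lowest stage was kept out, which limits the differences members can show. No member was called: of 75 members tested, 0 passed an adjusted p of 0.05 in limma, where 0.0959% of 22951 probes did. At an unadjusted p under 0.05 there were 11 members, against 9.43% of all probes. The 5 members detected on fewer than 3 T-ALL arrays, Hoxa7, Bahcc1, Armcx1, Gm1673 and the Eef1a1-annotated probe, were not tested. The smallest p belonged to the unnamed probe ILMN_2536184, at 6.93 to 7.23 on Rag-proficient arrays and at 7.56, 7.56 and 7.70 on Rag-deficient arrays, a difference of 0.48 ± 0.07 (SE, limma adjusted p = 0.0509). ILMN_1217709 differed by 0.38 ± 0.08 (SE, limma adjusted p = 0.136), and Dnajc6 was lower in Rag-deficient T-ALL by 0.42 ± 0.12 (SE) on probe ILMN_1230224 (log2 -0.42, limma adjusted p = 0.323). Both unnamed probes had no overlap between the Rag groups. They were picked for their small p, and the share of all probes without overlap was not counted, so nothing is read from this. Both are also among the probes, described below, whose thymocyte levels followed the slide. All Rag-deficient arrays lay on slide 3 with Rag-proficient replicate 7, and the groups differed in strain. Within slide 3, 53 of the 75 differences (70.7%) had the same sign as over all arrays, as did 74% of all probes tested. Both differences use these 4 arrays, so nothing is read from that share. The higher T-ALL mean was Rag-proficient for 40 members and Rag-deficient for 40.

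**Figure D3:**
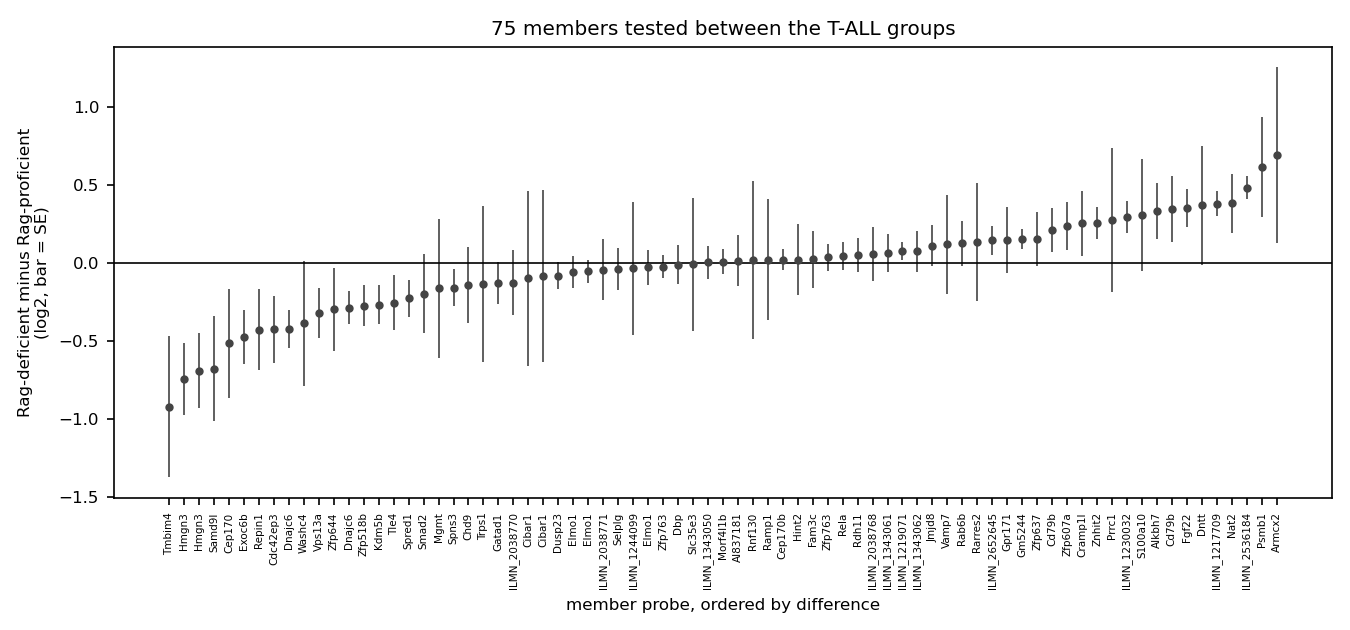
Difference between Rag-deficient and Rag-proficient T-ALL (log2, bars are SE) for the 75 members tested, in order of size. The points run from -0.92 to 0.69 and none was called, although several short bars, such as that of ILMN_2536184, stand clear of 0.

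Thymocyte stages differed from each other on many of these probes. The F test among the 7 stages called 42 of 80 members (52.5%), against 27.5% of 24430 probes. All members were detected on all 15 thymocyte arrays, while the 24430 probes needed detection on only 2. Of all probes 11274 were detected on all 15. The part of brightness in these shares, and in the ranges and steps below, was not tested. Under median scaling it called 27, where 3171 of all probes were called, and the Dnajc6 probes were not among them (adjusted p = 0.223 and 0.0780 in limma). The median range of the stage means was 1.13 for the members and 0.54 for all probes tested. ETP was the highest stage for 32 members and DP for 20, where they were highest for 15.6% and 25.2% of all probes, and TN4 was highest for none. The lowest stage was DP for 20, ISP for 19 and TN3b for 17, where they were lowest for 25.4%, 11.9% and 13.4% of all probes. The score sets a floor under every stage and so bears on which stage is lowest. The widest ranges after Gpr171 were those of Repin1, a zinc-finger gene (3.09, TN3a to DP), Spns3, of the spinster transporter family (2.75, ETP to ISP), and both probes of Hmgn3 (2.71 and 2.58, TN3a to ETP).

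From TN3a to TN3b, the passage of beta selection, 22 members were called, 21 of them lower, where 9.02% of all probes were called, 4.52% lower and 4.49% higher. Repin1 fell from 11.21 to 9.26, by 1.94 ± 0.23 on the log2 scale (SE, limma adjusted p = 0.000522). Others that fell were Cd79b, with log2 changes of -1.87 and -1.80 on its 2 probes, and Kdm5b, with -1.65. Rab6b changed by -1.55, Dntt by -1.53, Dbp by -1.42, and the second Dnajc6 probe by -0.88. Dntt passed narrowly (SE 0.41, limma adjusted p = 0.0401) and was not called in the F test among stages (limma adjusted p = 0.106). Zfp518b, a zinc-finger gene, was the 1 member that rose, by 0.94. On slides 6 and 7, each with 1 array of both stages, all 22 went the same way as in the fit, as their selection from these very arrays makes likely. Without TN3b replicate 2 the count was 11, 10 of them lower, and without TN3b replicate 1 or TN3a replicate 2 it was 13, while the count over all probes went from 2203 to 954, 712 and 1759. Under median scaling 8 members were called, all lower, and 524 of all probes.

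From ISP to DP 26 members were called, 21 higher and 5 lower, where 19.1% of all probes were called, 9.29% higher and 9.84% lower. Rab6b rose from 7.68 to 9.57, by 1.89 ± 0.18 (SE, limma adjusted p = 3.96e-05). S100a10 rose by 1.83, Samd9l by 1.59, Cd79b by 1.55, Trps1 by 1.52, Kdm5b by 1.35, Dnajc6 by 1.15 and 1.30, and Selplg by 1.15. The 5 that fell were both Cibar1 probes, Repin1, Bahcc1 and Zfp518b. On slide 7, the only one with both stages, all 26 went the same way as in the fit, up or down. Their selection from these very arrays makes that likely, and nothing is read from it. Without DP replicate 1 the count was 15, without ISP replicate 1 it was 16 and without ISP replicate 2 it was 17, while the count over all probes went from 4675 to 3790, 3210 and 3173. Under median scaling 8 were called, 4 higher and 4 lower, and 2524 of all probes.

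Few members were called at the other steps. TN2 was 1 array in the fit, replicate 1, and its spread was taken from the other stages. That array also had the highest erythroid sum of the thymocyte arrays, and the part of this in the TN2 steps was not tested. From ETP to TN2 both Hmgn3 probes were called higher, by 1.89 and 1.84, where 1.72% of all probes were called, 0.651% higher and 1.06% lower. These calls rest on that array. TN2 replicate 2 read 9.19 and 9.22 for the Hmgn3 probes against 10.46 and 10.21 on replicate 1, and with it included neither was called (limma adjusted p = 0.179 and 0.0757), while Dbp and Cep170b were called lower. Without ETP replicate 2 no member was called, and the count over all probes went from 419 to 228. From TN2 to TN3a Rab6b was called higher by 1.58 and Zfp518b lower (log2 -1.39), where 2.24% were called, 0.896% higher and 1.34% lower. Both were called with TN2 replicate 2 included too, with log2 changes of 1.75 and -1.36. From TN3b to TN4 no member was called in limma (0.0614% of all probes, and 3 members at an unadjusted p under 0.05), nor from TN4 to ISP (0.0819%, and 4 members).

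**Figure D4:**
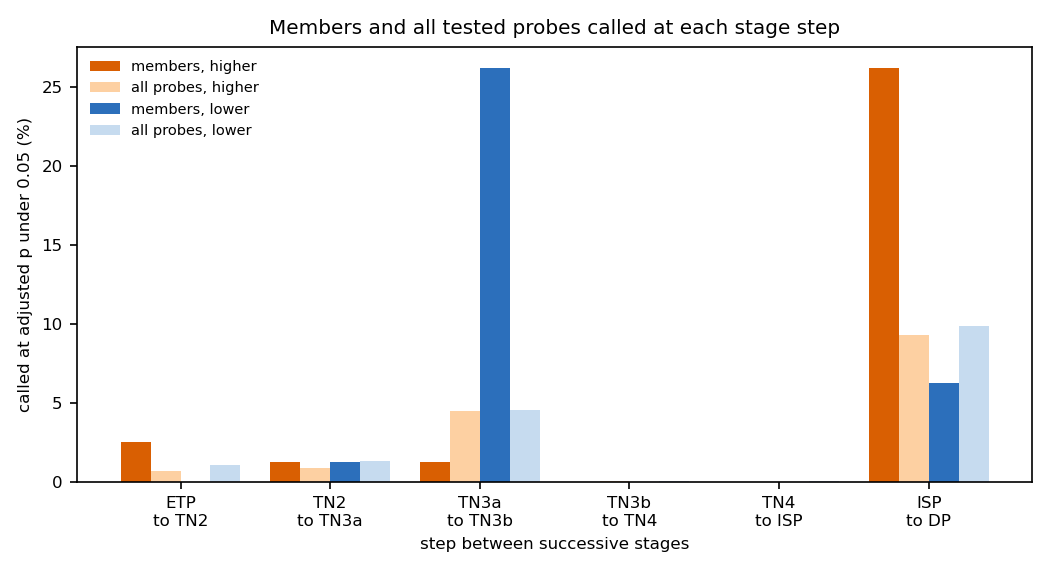
Share of the 80 members (dark bars) and of all 24430 tested probes (pale bars) called higher (orange) or lower (blue) at each of the 6 steps, in percent. The members' tallest bars are lower at TN3a to TN3b (21 of 80) and higher at ISP to DP (21 of 80).

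The held-out array, TN2 replicate 2, was not used to choose members. Mapped onto the same quantiles, it was above every T-ALL array for 73 of the 80 members, or 91.2%, against 30.3% of all probes, and above the higher T-ALL mean for 79. Against the 15 thymocyte arrays it lay within their range for 43 members, above it for 29 and below it for 8. Under median scaling, an alternative added after the data were seen, the count fell to 18 of 80, or 22.5%, against 26.4% of all probes, so the result rests on the quantile mapping of this dim array. The lowest were the unnamed ILMN_1244099 (10.16, against a T-ALL maximum of 10.92), Rarres2, which encodes chemerin (8.02 and 8.67), Elmo1 probe ILMN_2750265 (6.74 and 7.26), Armcx2 (9.56 and 10.03) and Slc35e3 (9.78 and 10.08).

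Other probes of the same genes gave a further view that the choice did not use, although on the same arrays. There were 58 of them, on 31 genes, and 43 (74.1%) were lower in T-ALL than the mean of the stages, against 57.1% of all probes, with a median difference of -0.11 against -0.02. Of the 44 detected on at least 2 of the 25 arrays 34 (77.3%) were lower, against 52.2% of 28597 probes, with medians of -0.24 and -0.01. The 26 probes, on 15 genes, detected on all 15 thymocyte arrays had 23 lower (88.5%), against 59.8% of 11274 probes, with medians of -0.69 and -0.10. That filter asks for signal in thymocytes alone and so favours lower values in T-ALL. Of the remaining 32 probes 20 were lower, with a median difference of -0.02, and the share of all probes under that filter was not counted. Kdm5b had differences of -1.28 and -0.71 on its other probes, Repin1 -1.31, Selplg -0.93 and Fam3c (a secreted factor) -0.93. Elmo1, which with Dock proteins activates Rac, had 3 member probes and 8 others detected on all 15 arrays, the latter from -0.80 to -0.42. Probes of one gene are not independent, and Elmo1 weighs most in the counts above. Its brightest probe, ILMN_2658407 (11.11 as the mean of stages), differed by -0.51, but its groups overlapped and its score was -0.08.

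Some probes went the other way. A pair of Rarres2 probes, detected on 6 and 7 T-ALL arrays and on no thymocyte array, were higher in T-ALL by 0.54 and 0.36, and a Chd9 probe, detected on 10 T-ALL and 5 thymocyte arrays, by 0.28. Gatad1, a chromatin-associated zinc-finger gene, had 2 other probes at 0.13 and 0.06 in T-ALL relative to the stages. Eef1a1 encodes the translation elongation factor, and its other 2 probes were among the brightest on the array, at stage means of 14.73 and 14.66 and differences of 0.03 and -0.06. The member probe annotated to it, ILMN_1244894, was not detected on any T-ALL array and had a different profile, and its gene identity is uncertain. Psmb1, Hoxa7 and Dntt had no other probe with this detection.

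**Figure D5:**
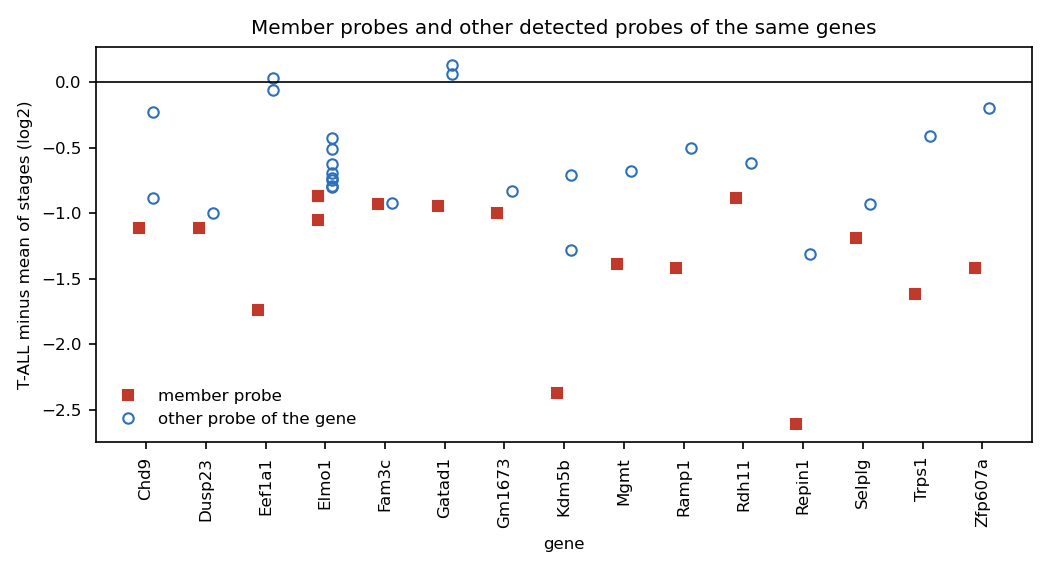
T-ALL mean minus the mean of stages (log2) for the member probes (red squares) and the other probes of the same gene detected on all 15 thymocyte arrays (open blue circles), for 15 genes. Circles lie below 0 for all genes except Gatad1 and 1 of 2 Eef1a1 probes, and some symbols overlap.

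The Eef1a1-annotated probe was one of a set of 7 whose thymocyte levels followed the slide. On all 4 arrays of slide 6 that were used (ETP replicate 2, TN3a replicate 2, TN3b replicate 1 and TN4 replicate 2) it was at 10.39 to 10.96, and on the other 11 thymocyte arrays at 7.23 to 8.36. The unnamed probes ILMN_1230032 (11.00 to 11.29 against 7.91 to 9.10), ILMN_1217709 (10.86 to 11.17 against 8.14 to 9.10), ILMN_2536184 (10.69 to 11.21 against 7.93 to 9.11) and ILMN_1219071 (9.13 to 9.77 against 7.26 to 8.01) were split the same way. So were Gm5244 (9.62 to 10.09 against 7.26 to 7.93) and Morf4l1b (8.55 to 8.67 against 7.35 to 7.75). TN2 replicate 2, also on slide 6, was at 9.01 to 11.78 on these 7 probes. Among all probes 0.597% were above every other thymocyte array on slide 6, and 7 of the 80 members were. Their stage means therefore reflect how many arrays of a stage lay on that slide, and the F test called 0 of the 7. Their annotation, where given, may not separate near-identical gene copies, and is uncertain.

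Another 6 unnamed members came from 2 short runs of probe IDs, ILMN_1343048 to ILMN_1343064 and ILMN_2038768 to ILMN_2038771, in which none of the 16 probes has an annotation. Whether they measure a mouse transcript at all, or are control probes of the array, cannot be told from the annotation used. Of these 16, 11 were detected on all 15 thymocyte arrays, and all 11 were lower in T-ALL, by log2 differences from -1.39 to -0.42. On all 11 TN2 replicate 2 was above every other thymocyte array. The brightest member in T-ALL was one of them, ILMN_2038770, at 12.64 and 12.52 in the T-ALL groups and 13.62 as the mean of stages.

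Among themselves most members had little in common across leukaemias. Over the 10 T-ALL arrays the median correlation of 3160 pairs of members was 0.04, and over the 7 stage means it was 0.25. Pairs of probes of one gene, 8 in all, had medians of 0.91 and 0.92. The Hmgn3 probes had r = 0.94 across leukaemias and 1.00 across stages, and the Dnajc6 probes 0.93 and 0.98. Elmo1 probe ILMN_2726261 did not follow the other Elmo1 members across leukaemias (r = -0.09 and -0.02). Some other pairs were alike across leukaemias, such as ILMN_1343062 and ILMN_2038768 of the unannotated runs (r = 0.97), and Zfp644 and Washc4 (r = 0.97). They were picked from the highest of the 3160 pairs. The pair of different named genes most alike across stages was Tmbim4 and Spns3, with r = 0.99 over 7 stage means and -0.42 over leukaemias. These correlations share arrays and are descriptions.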

How the data were processed

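RNA was hybridised to Illumina bead arrays as biotin-labelled cRNA, per the labels' protocols. The authors deposited 2 tables of non-normalised probe intensity, each with a detection p-value per probe and array, and no header names a background correction. The T-ALL table's deposited p-values were 2-sided, since dim probes also had low values, and were made one-sided around the intensity of probes with high p-values. A probe was detected at a one-sided p under 0.01. The tables were joined by probe ID (46089 probes), TN2 replicate 2 was held out, and log2 intensity of 25 arrays was quantile-normalised with no background correction. Gene symbols came from GEO's platform annotation, updated through RefSeq, for 35667 probes, and 10422 had none.

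Limma 3.58.1 (R 4.3.3) was fitted to T-ALL arrays, to thymocyte arrays and to all arrays, on probes detected on at least 3, 2 and 2 arrays, with Benjamini-Hochberg adjustment over all probes tested and a threshold of 0.05. Limma p-values are 2-sided. The fits were tested on simulated data with known changes. TN2 replicate 2 was mapped onto the mean quantiles of the 25 arrays.

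Members, gene lists and role groups were chosen with earlier results of these data known. Members named are the 12 highest scores, ranks 78 to 80 and 81 to 83, those called between Rag groups, the 5 widest and 5 narrowest stage ranges, the 5 brightest in T-ALL, the 5 lowest in TN2 replicate 2, genes with several member probes, and list members. Others were named after their values were seen. Alternatives were normexp correction (offset 16), median scaling, including TN2 replicate 2, separate normalisation, no filter on dim probes, trend and robust variances, slide as a fixed or random block (statmod 1.5.0), other scores, and leaving out each array. The number of arrays limits the precision.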

Additional observations from a re-analysis of the deposited data

Results flagged for a closer look

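Single Rag-proficient leukaemias stood apart from the other 6 on 10 of the 80 members, by Dixon's test on the 7 arrays at the 95% level, where chance flags about 1 group in 20. That is 12.5% of members, against 7.1% of all 46089 probes and 8.03% of the 28597 tested in the fit to all arrays. Rag-proficient replicate 6 was the highest of the 7 for Kdm5b (7.45, others 6.83 to 7.08), Repin1 (8.31, others 6.90 to 7.35) and Zfp518b (7.47, others 6.78 to 7.04). Repin1 there was above the lowest thymocyte array, at 8.03. Replicate 4 was the lowest for Zfp644 (7.71, others 8.59 to 8.72) and for Washc4 (8.41, others 9.42 to 10.06), and the highest for Cdc42ep3 (8.34) and for the Eef1a1-annotated probe (6.79, undetected). Replicate 1 was the highest for S100a10 (7.74), replicate 7 for Spns3 (7.35), and replicate 3 the lowest for the unnamed ILMN_1343061 (8.65).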

How the results depend on the processing

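T-ALL and thymocytes share no slide, bead-array signal keeps its background, and 2 or 3 arrays per group limit what can be called. Rag contrast: 0 members were called, and 1 (ILMN_2536184) with normexp (adjusted p = 0.0446), with slide as a random block (0.0249, with a slide correlation of -0.08) and without Rag-proficient replicate 1 (0.0383). Its adjusted p reached 0.323 with slide as a fixed block. Leaving out each array gave 0 to 1 members, and 4 to 34 probes in all, against 22 (normexp 87, no filter 14). For the F test, 42 members became 27 under median scaling and 35 to 42 on leaving out arrays. From TN3a to TN3b 22 became 14 with normexp, 8 under median scaling, 14 with TN2 replicate 2 included and 11 to 22 on leaving out arrays. From ISP to DP 26 became 8 under median scaling and 15 to 26 on leaving out arrays. From ETP to TN2, 2 became 1 with normexp or no filter, 0 under median scaling, 4 with slide as a fixed block and 0 to 2 on leaving out arrays, and with TN2 replicate 2 included 2 other members were called, both lower. From TN2 to TN3a, 2 became 1 under median scaling, 9 with TN2 replicate 2 included, 12 with slide as a fixed block, 8 as a random block, and stayed at 2 on leaving out arrays. From TN4 to ISP 0 to 1 were called on leaving out arrays. Of the 80 members, 50 were chosen again with normexp, 46 from the lowest thymocyte minus the highest T-ALL array, 32 from the mean of stages and 61 to 78 on leaving out arrays. Under median scaling 56 were, and the scores of Znhit2 (-0.0574), Hint2 (-0.0767), Alkbh7 (-0.0368) and Jmjd8 (-0.0758) turned negative. TN2 replicate 2 was above every T-ALL array on 73 members and on 18 under median scaling. Other causes of these changes were not tested. No paired analysis was possible because the labels give no replicate numbers that could pair arrays, and the blocks above are slides shared by several groups.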
